A study of Mus musculus with 2 samples.

Results

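Amino acid transporters of the SLC1, SLC3, SLC7, SLC36, SLC38 and SLC43 families were compared between MALAT1-knockdown and control C3H10 cells. The members are every gene of the count table whose symbol is Slc1a, Slc3a, Slc7a, Slc36a, Slc38a or Slc43a followed by a number. This gave 42 of 46095 genes, of which 31 reached a sum of 10 counts over the 2 libraries and could be compared. The 3 symbols with letters after the number (Slc36a1os, Slc36a3os and Slc7a6os) name other genes and were left out. C3H10 is a mouse mesenchymal line that turns into adipocytes when induced. The labels give its strain as C57BL/6, which differs from the C3H in the line's name and was not checked here. Both groups received an antisense oligonucleotide (ASO), a short strand that leads to cleavage of the RNA it pairs with, at 100 nM and at 70% confluence. One group received an ASO against MALAT1 (C3H10 ASO MALAT1, MALAT1-knockdown cells), and the other the negative control ASO (C3H10 ASO NC, control cells). After 8 h both were returned to full medium, grown to confluence and differentiated, with 2 days in an induction medium of isobutylmethylxanthine, dexamethasone, troglitazone and insulin and then insulin alone, and the study places the RNA-seq at day 6. Both libraries therefore come from transfected and induced cells, and neither an untransfected nor an undifferentiated culture was analysed here. The study designed 2 ASOs against MALAT1, and its text and the sample titles do not say which of them was used for the RNA-seq.

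Each group is 1 library, so no difference below has a replicate check. Library totals were 58147539 counts for control and 61653549 for knockdown cells, scaled by TMM factors of 0.992 and 1.01. Each gene's counts were compared with a two-sided exact binomial test adjusted over all 17356 genes with at least 10 counts. A gene is called here when its adjusted p was under 0.05 and its ratio was past a stated fold. The test and its 95% intervals compare these libraries and cover counting error only, since 1 library a group gives no spread between cultures. PCR copies of 1 molecule cannot be recognised in a table of counts, so even counting error may be larger than the intervals show. The targeted gene had 170402 control and 45396 knockdown counts, a log2 ratio of -2.01 (95% interval -2.03 to -2.0).

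Amino acids cross membranes on carriers that differ in substrate and in driving force. SLC1 carriers take up glutamate or exchange small neutral amino acids, SLC38 carriers bring in glutamine and alanine with sodium, and SLC36 carriers move small amino acids with protons. The light subunits of SLC7 are exchangers that reach the surface only when linked to a heavy subunit of SLC3, while the cationic SLC7 carriers bring in arginine and lysine on their own. In most cells starvation for an amino acid activates the factor ATF4, which switches on several of these genes together with the enzymes of amino acid synthesis. In fat cells, branched-chain amino acids and glutamine also feed lipid synthesis.

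Taken as a group, the transporters had a median near that of other genes. The median log2 ratio was 0.03 over 31 genes, beside a median of -0.0029 over all genes tested. The 42 members together held 138986 control and 145705 knockdown counts, which is 2409 and 2345 CPM (counts scaled to a common library size by the TMM-adjusted totals). Some single members were called. At 2-fold, 2 of the 31 members (Slc36a2 and Slc3a1) were called lower, where 4.09% of all genes were called lower. At the same fold, 1 member (Slc7a13) was called higher, where 2.19% of all genes were. With 31 members compared, both counts are near these shares. At 1.5-fold, 6 members were called lower (Slc36a2, Slc3a1, Slc1a5, Slc43a1, Slc7a5 and Slc7a7), against a background of 7.26%. Likewise 2 members were called higher (Slc7a13 and Slc38a1), against 4.37%. With no fold threshold, the 95% interval lay below 0 for 13 members and above 0 for 9, and it held 0 for the other 9. Over all genes tested, 26.4% had an interval below 0 and 26.7% one above 0. The calls allow for no variation between cultures: with edgeR's exact test and a preset coefficient of variation of 0.1, Slc36a2, Slc1a5 and Slc7a5 kept the 1.5-fold call, at 0.2 Slc36a2 alone did, and at 0.4 none of the 31 did.

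**Figure D1:**
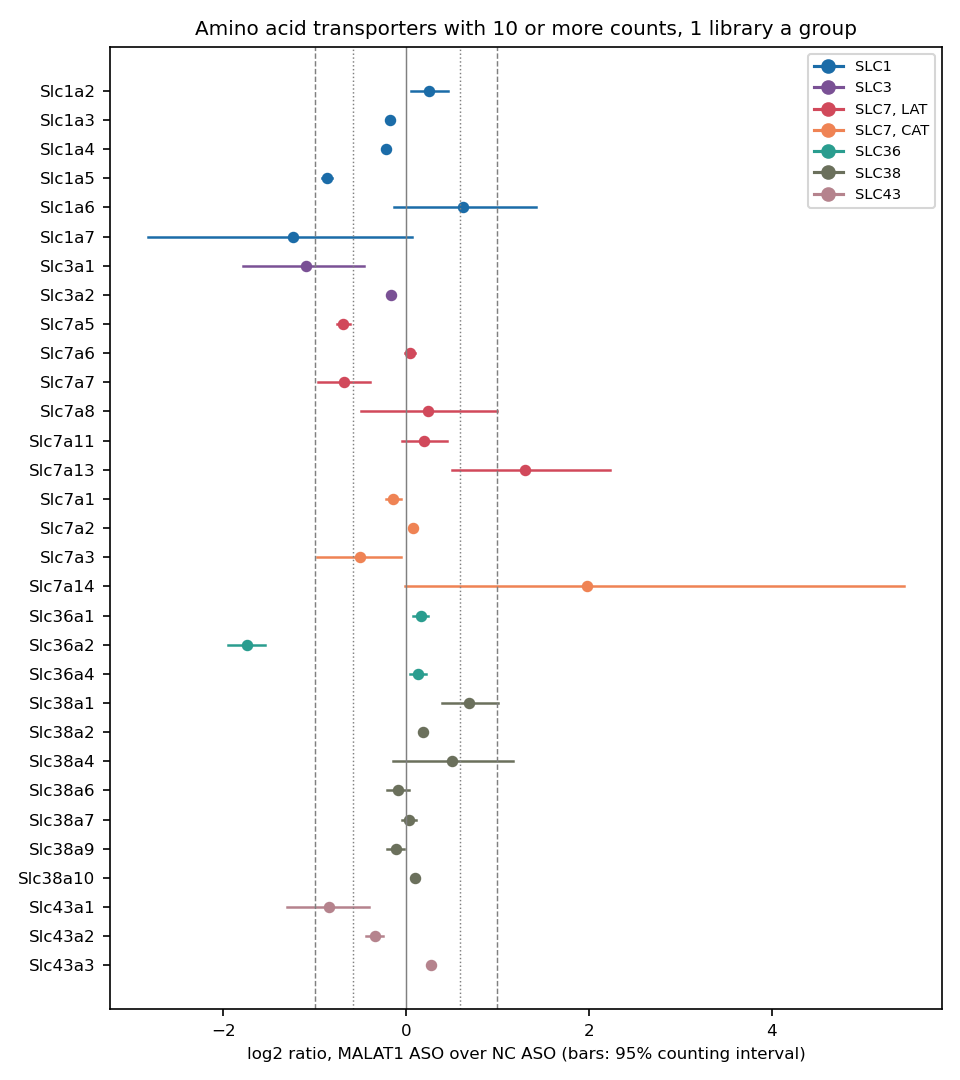
Log2 ratio of MALAT1-knockdown over control cells for the 31 transporters with at least 10 counts, ordered and coloured by family; points are ratios and bars are 95% counting intervals. The solid line marks no difference, the dotted lines 1.5-fold and the dashed lines 2-fold; Slc36a2 lies at -1.74 with its whole bar beyond the 2-fold line, while most abundant members lie close to 0.

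The 17 members with a mean of at least 1000 counts had a median of -0.09, beside 0.01 for the 8251 genes as abundant, and ranged from -0.87 for Slc1a5 to 0.28 for Slc43a3. None of the 17 was called at 2-fold, where 0.739% of these abundant genes were called lower and 0.0121% higher. At 1.5-fold, Slc1a5 and Slc7a5 were called lower, against 2.84%, and 0 of the 17 were called higher, against 1.43%. The other 14 members compared had a mean under 1000 counts, and their ratios ranged from -1.74 for Slc36a2 to 1.98 for Slc7a14, whose counts were 2 and 10.

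**Figure D2:**
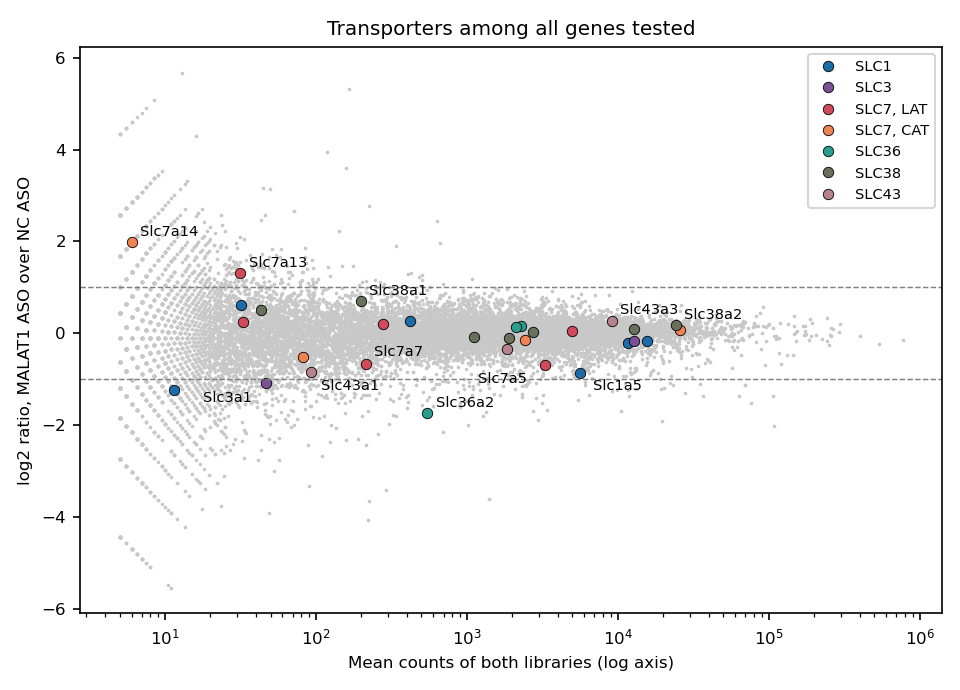
Log2 ratio against mean counts of both libraries (log axis) for all 17356 genes tested (grey) and the 31 transporters (coloured by family), with dashed lines at 2-fold. The spread of all genes widens at low counts, where Slc7a13, Slc3a1 and Slc7a14 lie, while Slc1a5 and Slc7a5 rank 94 and 162 from the bottom among the 8251 genes with a mean of at least 1000 counts.

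Slc36a2 differed most among the members with more than 100 counts. It encodes PAT2, a proton-coupled carrier of glycine, alanine and proline that is known as a surface marker of brown and beige fat cells. It had 827 control and 266 knockdown counts, a log2 ratio of -1.74 (95% interval -1.95 to -1.54), with an exact binomial adjusted p of 3.5e-75. The level left was 29.9% of control, and its ratio ranked 393 from the bottom among the 17356 genes tested. The mature adipocyte markers were lower in the same library. Of the 17 markers written down, 16 could be compared and 13 were called lower at 2-fold, where 4.09% of all genes were, with a median of -1.23 and summed levels of 8192 and 3342 CPM. Adipoq, the fat cell hormone adiponectin, had 38769 and 16923 counts, and Lep, the hormone leptin, had 1 and 0. Whether the change in fat cell markers has a part in the Slc36a2 difference was not tested, and in bulk RNA fewer fat cells and less RNA per fat cell cannot be told apart.

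Slc7a10 encodes Asc-1, a light subunit for alanine, serine and cysteine that is known as a surface marker of white fat cells. It was listed at 0 counts in both libraries, which allows at most 3 counts, or 0.0520 and 0.0483 CPM in control and knockdown cells. This transporter marker was therefore not detected in either culture at this depth, although Adipoq and Fabp4 were abundant. Its exons share 377 bases with Lrp3 on the opposite strand, and the strand setting of the counting is not given in the sources used here.

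The other SLC36 members compared did not share the direction of Slc36a2. Slc36a1, a proton-coupled carrier of lysosomes and the cell surface, had 2088 control and 2514 knockdown counts, a log2 ratio of 0.16 (0.08 to 0.25). Slc36a4, which also sits on lysosomes, had 1948 and 2299 counts, a log2 ratio of 0.13 (0.04 to 0.22). Neither was called at 1.5-fold. In the GENCODE M21 annotation of GRCm38, the build named in the submitters' processing notes, Slc36a2 lies on the minus strand at chr11:55158470-55185077 and Slc36a1 on the plus strand at chr11:55204350-55236330. The pair is head to head with 19272 bases between the genes, and per length of the longest transcript Slc36a2 stood at 0.858 of Slc36a1 in control cells and at 0.229 in knockdown cells. With the median annotated transcript the ratios were 0.304 and 0.0812, so how near the levels stood depends on the length used. This pair was chosen after its values were seen. Slc36a3, which lies next to Slc36a2 on the other side, had 1 and 0 counts.

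Of the 6 SLC1 members compared, the glutamine exchanger Slc1a5 alone was called, and 3 had an interval below 0, 1 had one above 0 and 2 had one that held 0. Slc1a5 encodes ASCT2, the exchanger that brings glutamine into many growing cells. It had 7091 control and 4188 knockdown counts, a log2 ratio of -0.87 (95% interval -0.92 to -0.81), or 54.9% of the control level. Among the 8251 genes with a mean of at least 1000 counts, it ranked 94 from the bottom. The gene lies at chr7:16781340-16798274 on the plus strand.

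Slc1a4, the closest relative of Slc1a5 and an exchanger of alanine, serine and cysteine, had 12080 and 11175 counts, a log2 ratio of -0.22 (-0.26 to -0.18). Slc1a3, the glutamate carrier GLAST, had 15920 and 15204 counts, a log2 ratio of -0.17 (-0.21 to -0.14). Both intervals lay below 0, and both ratios were under 1.5-fold. Slc1a2, the glutamate carrier GLT-1 of glia, had 370 and 476 counts, a log2 ratio of 0.26 (0.06 to 0.46). Slc1a6, a glutamate carrier of Purkinje neurons, had 24 and 40 counts and Slc1a7, a carrier of the retina, had 16 and 7, with intervals that held 0. Slc1a1 was listed at 0 in both libraries, while 2631 of its exon bases lie opposite 4430402I18Rik, which had 100 and 31 counts.

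Slc3a2, the heavy chain of CD98 and the partner of most light subunits, had the highest level per length of all members in both libraries when the longest transcript was used. With the median annotated transcript it was second to Slc43a3 in knockdown cells. It had 12996 control and 12507 knockdown counts, a log2 ratio of -0.16 (95% interval -0.20 to -0.13). Slc3a1 encodes rBAT, the heavy subunit of kidney cystine transport, and had 62 and 31 counts, a log2 ratio of -1.09 (-1.78 to -0.46). It was called lower at 2-fold on these few reads. Its exons share 601 bases with Prepl on the opposite strand, which had 2980 and 3135 counts, and whether reads of Prepl enter the Slc3a1 count was not tested. Its kidney partner Slc7a9 had 0 and 2 counts.

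Among the light subunits, those for large neutral amino acids did not move together. Slc7a5 encodes LAT1, which takes up leucine and other large neutral amino acids in exchange for glutamine. It had 3927 control and 2630 knockdown counts, a log2 ratio of -0.68 (95% interval -0.76 to -0.61), and was called lower at 1.5-fold. Its ratio ranked 162 from the bottom among the abundant genes, and the gene lies at chr8:121881150-121907694 on the minus strand. Slc7a6, the y+LAT2 subunit that exchanges arginine for glutamine, had 4705 and 5221 counts, a log2 ratio of 0.04 with an interval from -0.01 to 0.10 that held 0. Slc7a7, the y+LAT1 subunit with a like function, had 256 and 172 counts, a log2 ratio of -0.68 (-0.97 to -0.40), and was called lower at 1.5-fold. Its exons share 232 bases with Oxa1l on the opposite strand, which had 5380 and 4924 counts.

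Slc7a5 and Slc7a6 supplied nearly all of the light subunit RNA for Slc3a2. Per length of the longest transcript, Slc7a5 made up 44.4% of the summed level of the 6 light subunits that pair with Slc3a2 in control cells and 33.1% in knockdown cells, while Slc7a6 made up 49.8% and 61.7%. The 6 light subunits summed to 0.545 of the Slc3a2 level in control cells and to 0.508 in knockdown cells. With the median transcript the shares were 49.0% and 37.2% for Slc7a5 and 47.4% and 59.5% for Slc7a6, and the sums were 0.810 and 0.743 of Slc3a2. These are ratios of RNA and not of protein.

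Slc7a11, the cystine and glutamate exchanger xCT, had 247 control and 305 knockdown counts, a log2 ratio of 0.20 (-0.05 to 0.45). An annotated Slc7a11 transcript holds 373 bases that match Tuba1a, Tuba1b and Tuba1c at over 95% on the opposite strand, and whether reads of these abundant tubulin genes enter its count was not tested. Slc7a8, the LAT2 subunit, had 29 and 37 counts. Slc7a13, a subunit known from kidney, had 17 and 46 counts, a log2 ratio of 1.31 (0.50 to 2.23), and was the only member called higher at 2-fold. Slc7a12 and Slc7a15 were listed at 0 in both libraries.

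The abundant cationic carriers were close to level. Slc7a2, the arginine carrier CAT2, had more counts than any other member, with 24402 control and 27601 knockdown counts, a log2 ratio of 0.07 (95% interval 0.05 to 0.10). Slc7a1, the widely expressed arginine carrier CAT1, had 2463 and 2411 counts, a log2 ratio of -0.14 (-0.22 to -0.06). As CPM per kb of the longest transcript, Slc7a2 stood at 53.5 and 56.2 and Slc7a1 at 5.95 and 5.41. Slc7a3, or CAT3, had 94 and 71 counts, a log2 ratio of -0.51 (-0.98 to -0.05) that missed the threshold (adjusted p = 0.0583 from the exact binomial test). Slc7a4 had 1 and 8 counts and was not compared, and Slc7a14, which sits on lysosomes, had 2 and 10, a log2 ratio of 1.98 with an interval from -0.01 to 5.45.

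Of the 7 sodium-coupled SLC38 carriers compared, 3 had an interval above 0, 1 had one below 0 and 3 had one that held 0. Slc38a2 encodes SNAT2, the main carrier that cells raise when amino acids run short. It had 21765 control and 26583 knockdown counts, a log2 ratio of 0.18 (95% interval 0.16 to 0.21). Slc38a1, the related carrier SNAT1, had 144 and 251 counts, a log2 ratio of 0.69 (0.39 to 1.0), and was called higher at 1.5-fold. The transcript 4632432E15Rik matches Slc38a1 over 1450 bases at 96.6%, so reads could be shared between them. Slc38a1 lies 44478 bases from Slc38a2 on chromosome 15 and stood at 0.00557 of its level per length of the longest transcript in control cells and at 0.00795 in knockdown cells. With the median annotated transcript these ratios were 0.00958 and 0.0137. Slc38a4, a carrier of liver and placenta further along the same chromosome, had 34 and 52 counts and an interval that held 0.

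Slc38a10, whose role is less well known, had 11847 and 13644 counts, a log2 ratio of 0.10 (0.06 to 0.13). Slc38a7, a lysosomal glutamine carrier, had 2624 and 2883 counts, with a log2 ratio of 0.03 (-0.05 to 0.11). Slc38a9, the arginine sensor of lysosomes, had 1893 and 1882 counts, a log2 ratio of -0.11 (-0.21 to -0.02). Slc38a6 had 1106 and 1119 counts and an interval that held 0. Its transcripts hold stretches that match 37 other genes at over 95%, so its count is uncertain. Of the 5 members known to sit on lysosome membranes (Slc36a1, Slc36a4, Slc38a7, Slc38a9 and Slc7a14), 0 were called in either direction at 1.5-fold. With 7.26% of all genes called lower and 4.37% higher, a count of 0 among 5 genes is near the background. Slc38a3, Slc38a5 and Slc38a11 were listed at 0 in both libraries, and Slc38a8 had 0 and 1 counts.

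The SLC43 members went in opposite directions. Slc43a1, the branched-chain amino acid facilitator LAT3, had 115 control and 69 knockdown counts, a log2 ratio of -0.84 (95% interval -1.30 to -0.40), and was called lower at 1.5-fold. Slc43a2, the facilitator LAT4, had 1987 and 1687 counts, a log2 ratio of -0.34 (-0.44 to -0.25). Slc43a3, which belongs to the family by sequence and is known as a carrier of purine bases, had 7905 and 10313 counts, a log2 ratio of 0.28 (0.23 to 0.32). It had the highest ratio among members with a mean of at least 1000 counts and ranked 662 from the top among all such genes. Slc43a1 and Slc43a3 lie on chromosome 2 with 72984 bases between them.

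The make-up of the transporter RNA pool differed accordingly. Slc7a2 and Slc38a2 held 33.2% of the control and 37.2% of the knockdown counts of all members. The share of Slc1a5 was 5.10% in control cells (exact binomial 95% interval 4.99 to 5.22) and 2.87% in knockdown cells (2.79 to 2.96). Slc7a5 went from 2.83% (2.74 to 2.91) to 1.81% (1.74 to 1.87), and Slc43a3 from 5.69% (5.57 to 5.81) to 7.08% (6.95 to 7.21). The 10 members with most counts in each library held 88.2% and 88.8% of the pool. These sets differ, with Slc7a5 in the control set only and Slc38a7 in the knockdown set only. All of these are shares of counts, which were not scaled for transcript length.

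Levels of different genes were compared as CPM per kb of the longest annotated transcript. In control cells the order began with Slc3a2 at 80.1, Slc1a3 at 62.2, Slc38a2 at 61.7, Slc7a2 at 53.5, Slc1a4 at 53.3, Slc43a3 at 52.3, Slc38a10 at 44.8 and Slc1a5 at 43.8. In knockdown cells Slc3a2 led at 71.6, followed by Slc38a2 at 70.0, Slc43a3 at 63.3, Slc7a2 at 56.2, Slc1a3 at 55.2, Slc38a10 at 48.0, Slc1a4 at 45.8 and Slc1a5 at 24.0. Both lists hold these 8 genes, and Slc1a5 stands eighth in each, now well below the seventh. With the median annotated transcript in place of the longest, Slc38a2 and Slc1a4 leave the first 8 of the control library and Slc43a3 leads the knockdown library, so the order among the abundant members depends on the length used.

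**Figure D3:**
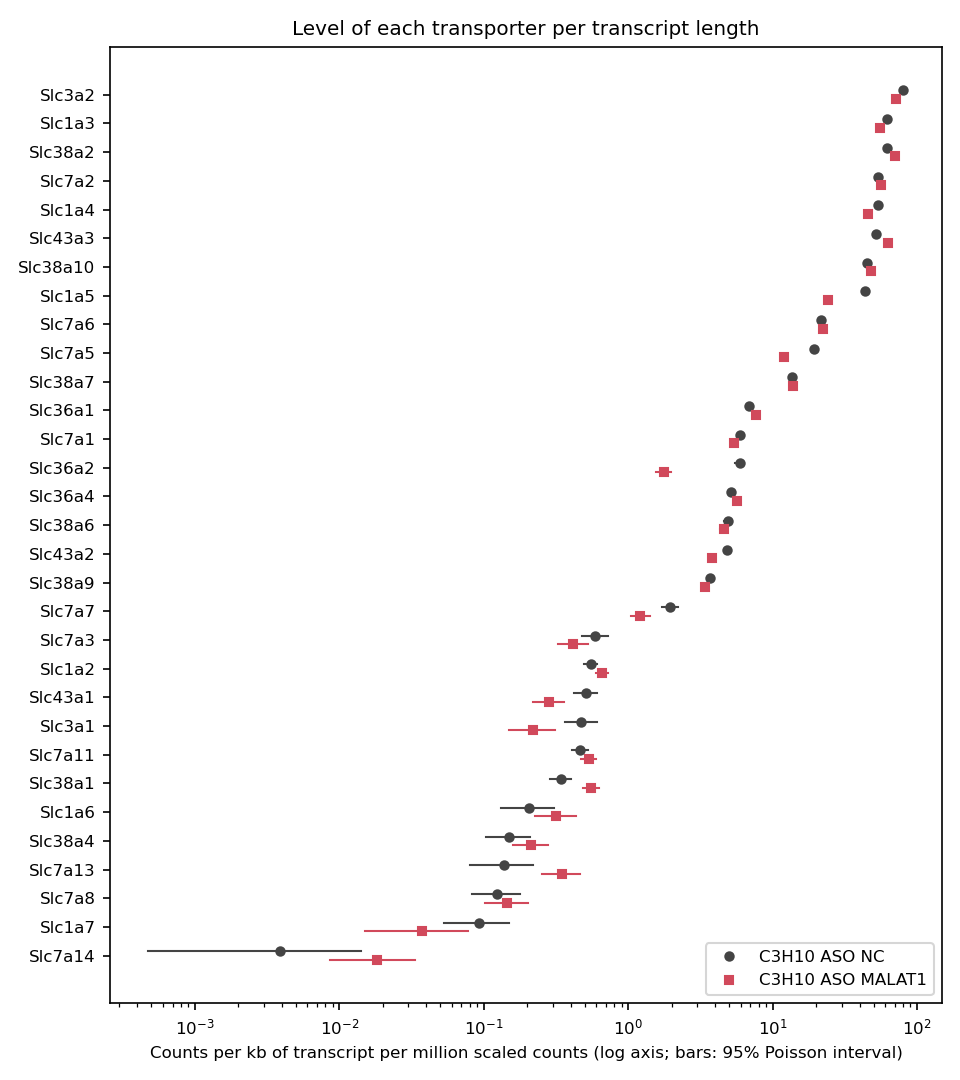
Level of each of the 31 transporters as CPM per kb of its longest transcript (log axis) in control cells (grey circles) and MALAT1-knockdown cells (red squares), with 95% Poisson intervals. Most pairs nearly coincide, and the widest gap among members above a level of 1 is that of Slc36a2, at 5.90 and 1.76.

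The 8 members known as targets of ATF4 (Slc7a1, Slc7a3, Slc7a5, Slc7a11, Slc3a2, Slc38a2, Slc1a4 and Slc1a5) had a median log2 ratio of -0.19, and 6 of them had an interval below 0, where 26.4% of all genes did. At 1.5-fold 2 of the 8 were called lower (Slc1a5 and Slc7a5), where 7.26% of all genes were, and 0 higher, where 4.37% were. Slc38a2 was the member of this list with an interval above 0. The element that ATF4 binds with a C/EBP partner, the amino acid response element, has the core TGATGNAA. To show where this core stands, the promoters in RefSeq's GRCm38.p6 annotation were searched on both strands, from 250 bases before to 50 bases after each start. Of 32851 windows searched, 3.97% hold the core. Windows were available for 31 members, which are not the same 31 as those compared. Of the members compared, 23 have a window. The core is in 4 of the 42 windows of members. These are windows of Slc7a11, Slc1a4 and Slc7a7. The stretches around the core are printed on the strand of the gene, 5′ to 3′, with the matches in capitals. For Slc7a7, which has several annotated starts, the stretch is that of the window whose transcribed part is found in GENCODE transcripts.
Slc7a11, chr3:50443614-50443719, minus strand: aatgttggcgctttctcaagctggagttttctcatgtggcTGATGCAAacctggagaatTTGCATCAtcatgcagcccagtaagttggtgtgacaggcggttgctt
Slc1a4, chr11:20332710-20332757, minus strand: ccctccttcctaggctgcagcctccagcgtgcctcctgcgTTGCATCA
Slc7a7, chr14:54417898-54417952, minus strand: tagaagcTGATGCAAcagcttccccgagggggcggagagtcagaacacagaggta
The Slc7a11 promoter holds the core on each strand, at positions -66 and -47 with the start at 0, while its RNA had a log2 ratio of 0.20 with an interval that held 0. In Slc1a4, with a log2 ratio of -0.22, the core on the opposite strand begins at position -4. In Slc7a7, called lower at 1.5-fold, it begins at position -243. Another Slc7a7 window overlaps this one and holds the same match at position -1, so this site is counted in both windows. That window also holds TGATGAAA at position -141. The windows of Slc1a5 and Slc7a5 were not analysed here. A match is a description of these letters and not a measured binding site.

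The other motifs searched were the antioxidant response element core TGACNNNGC, the C/EBP motif TTGCNNAA, and DR1, in which AGGTCA is repeated after 1 base. The first was in 12.4% of all windows and in 6 of the members' 42 windows. Those belong to 5 members (Slc36a1, Slc38a2, Slc43a1, Slc7a1 and Slc7a6). The second was in 10.8% of all windows and in 7 of the members' 42 windows. Those belong to 7 members (Slc1a2, Slc36a1, Slc38a5, Slc3a1, Slc7a11, Slc7a14 and Slc7a7). DR1, the site of PPAR-γ with its partner, was in 0.0396% of all windows and in 0 of the members' windows. Only this exact form of 13 bases was searched, and 13 of 32851 windows hold it. A count of 0 in 42 windows is near that share, and it does not show whether members have sites of another form or elsewhere. The Slc36a2 window was not analysed here.

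Other genes of amino acid metabolism were set beside the transporters as lists written from general knowledge. The ATF4 amino acid response list had a median of -0.52 over 24 genes, with 2 called lower at 2-fold (4.09% of all genes), 11 called lower at 1.5-fold (7.26%) and 0 called higher (4.37%). Trib3, a pseudokinase that restrains ATF4, had 1671 and 758 counts, a log2 ratio of -1.25 (-1.37 to -1.12), and Cth, which makes cysteine, had 330 and 163 counts, a log2 ratio of -1.12 (-1.40 to -0.85). Gpt2, a mitochondrial alanine transaminase, was called lower at 1.5-fold with 8735 and 4804 counts. Atf4 itself, named after its values were seen, had 15744 and 12772 counts, a log2 ratio of -0.41 (-0.44 to -0.37). The 8 transporter targets of ATF4 had a median nearer to 0 than this list, which shares no gene with them.

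Branched-chain amino acid breakdown had a median of -0.58 over 18 genes, with 9 called lower at 1.5-fold (7.26% of all genes), 1 of these at 2-fold (4.09%), and 0 called higher (4.37%). Ivd, which acts on the leucine product isovaleryl-CoA, had 3813 and 1922 counts, a log2 ratio of -1.09 (-1.17 to -1.02). Bckdhb, a subunit of the dehydrogenase that commits these amino acids to breakdown, had 2579 and 1422 counts, a log2 ratio of -0.97 (-1.06 to -0.87). Bcat2, the mitochondrial transaminase that starts the pathway, had 34384 and 21876 counts, a log2 ratio of -0.76 (-0.78 to -0.73). Beside these enzymes, the carriers that bring in leucine gave log2 ratios of -0.68 for Slc7a5, -0.34 for Slc43a2 and -0.84 for Slc43a1. Slc7a7, with a function like that of Slc7a6, had -0.68 (-0.97 to -0.40). Slc7a6 had 0.04 and Slc7a8, on 29 and 37 counts, had 0.24, both with intervals that held 0.

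The glutamine, glutamate and transamination list had a median of -0.23 over 16 genes. In it 4 genes were called lower at 1.5-fold, where 7.26% of all genes were, and 1 higher, where 4.37% were. Gpt, the cytosolic alanine transaminase, had 2312 and 984 counts, a log2 ratio of -1.34 (-1.45 to -1.23) that was called at 2-fold. Glul, which makes glutamine, had 114551 and 75819 counts, a log2 ratio of -0.70 (-0.72 to -0.69), and Aldh4a1, a mitochondrial enzyme of proline breakdown, had a log2 ratio of -0.69. Ass1, which acts in arginine synthesis, was called higher with 1166 and 1897 counts. Ass1 was named after its values were seen.

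Neither of the lists for the sensing and the use of amino acids held a called gene. The 23 genes of lysosomal sensing by mTORC1, the kinase complex that Slc38a9 reports to, had a median of -0.04 and a range from -0.21 to 0.44, and 0 were called in either direction at 1.5-fold. The 20 genes of cytosolic aminoacyl-tRNA synthetases, which load amino acids onto tRNA, had a median of -0.15 and a range from -0.42 to 0.27, with 0 called. Of these 20, 13 had an interval below 0 and 2 one above 0, and their summed counts gave a log2 ratio of -0.20 (-0.21 to -0.19). For both lists the background shares at 1.5-fold were 7.26% lower and 4.37% higher, and 26.4% of all genes had an interval below 0. Most genes of both lists, and of the ATF4 response and branched-chain lists, had a mean of at least 1000 counts. Of all 8251 genes that abundant, 2.84% were called lower and 1.43% higher at 1.5-fold, and 2623 had an interval below 0.

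**Figure D4:**
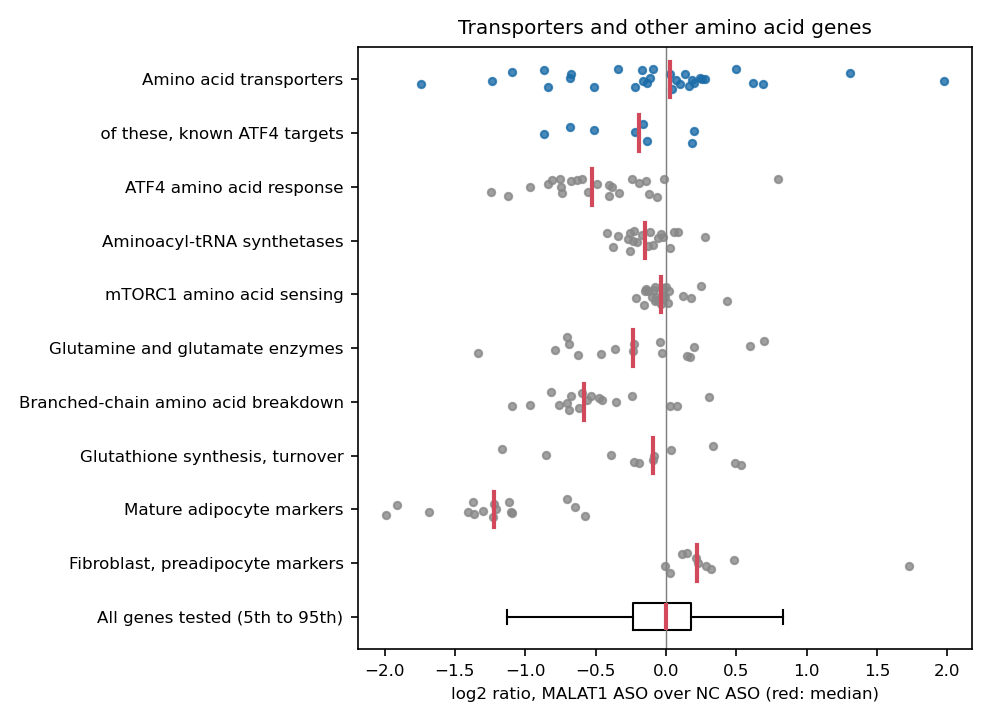
Log2 ratio of MALAT1-knockdown over control cells for each gene compared (points) in the transporters (blue) and other lists (grey), with the median of each list in red; the box shows the interquartile range of all 17356 genes and its whiskers the 5th to 95th percentile. The transporters spread to both sides of 0 around a median of 0.03, while the ATF4 response list has a median of -0.52, branched-chain breakdown -0.58 and mature adipocyte markers -1.23.

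Carriers of other families on the plasma membrane and lysosome included the most abundant transporter of this list. Slc6a6, the taurine carrier, had 50222 control and 60224 knockdown counts, a log2 ratio of 0.16 (0.14 to 0.17), and was named after its values were seen. Of 7 genes compared, Slc16a10, a carrier of aromatic amino acids, was called lower at 2-fold with 209 and 84 counts. Slc6a9, a glycine carrier also named after its values were seen, was called lower at 1.5-fold with 838 and 581 counts. Slc15a3, with 7 and 25 counts, and Slc6a12, with 12 and 30, were called higher at 2-fold. Over all genes, 4.09% were called lower and 2.19% higher at 2-fold.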

How the data were processed

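Total RNA was depleted of rRNA and made into libraries with a kit that keeps strand. The authors deposited raw read counts per gene symbol, 1 column per library. The submitters' processing notes name HISAT2 and GRCm38. The counting tool, annotation, strand setting and treatment of multi-mapped reads are not given in the sources used here. All 42 members were matched by symbol to GENCODE M21 (GRCm38), used for positions, lengths and overlaps; near copies were sought among its transcripts with megablast (at least 95% identity over at least 200 bases).

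Counts were scaled with TMM in edgeR 4.0.16 (R 4.3.3). Log2 ratios used a prior count of 0.5. edgeR's quasi-likelihood test could not be fitted without replicates, so counts were compared by a two-sided exact binomial test (2 times the smaller tail, scipy 1.17.1) with Benjamini-Hochberg adjustment over 17356 genes, and Clopper-Pearson intervals. The test was checked on simulated data drawn with counting error only, so this check does not cover variation between cultures. Members, lists and thresholds were chosen with earlier results of these data known. Named were all members, Malat1 and up to 3 called genes per pathway list, 2-fold calls before 1.5-fold calls, whose intervals lay farthest from 0. Promoters of 1 chromosome, and the proteins of the members, were not analysed here. Alternatives were other scalings (DESeq2 1.42.0), filters and prior counts, edgeR's exact test with a preset variation between cultures, and the median transcript length.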

Additional observations from a re-analysis of the deposited data

How the results depend on the processing

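The other scalings (upper-quartile factors, the size factors of DESeq2, and library totals alone), a smaller and a larger prior count, and a filter of at least 1 summed count left the number of members called at both folds as it was, in both directions, and so did at least 10 counts in each library. Without replicates, the calls rest on how much cultures vary. With edgeR's exact test and a preset coefficient of variation of 0.1, members called lower numbered 1 at 2-fold (Slc36a2) and 3 at 1.5-fold (Slc36a2, Slc1a5 and Slc7a5), with 0 higher at either fold. At 0.2, 1 was called lower at both folds (Slc36a2) and 0 higher, and at 0.4, 0 were called in any direction at any fold. Over all genes, a preset of 0.1 called 466 lower and 201 higher at 2-fold and 708 and 371 at 1.5-fold. A preset of 0.2 called 95 lower and 22 higher at both folds, and 0.4 called 0 lower and 1 higher at both. With at least 10 counts in each library, 15342 genes were tested, and 394 were called lower and 168 higher at 2-fold. Under the main filter 710 and 380 of 17356 were, so the called share fell too. Library totals moved the median of all genes most, to 0.0192. No paired analysis was possible because each group is 1 library. Depth limits the members under 100 counts, whose intervals are wide, and members at 0 may be expressed below the limit that 3 counts set.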

Other observations

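Glutathione, which uses the cystine that Slc7a11 brings in, had a list of 11 genes with a median log2 ratio of -0.09, in which 1 gene was called lower at 1.5-fold (Ggt5, with 553 and 329 counts in control and knockdown cells) and 0 higher, beside 7.26% and 4.37% of all genes. Gclc, the catalytic subunit of the first step, had 10575 and 16517 counts, a log2 ratio of 0.54 (95% interval 0.50 to 0.57), while Gclm, its modifier subunit, had 1170 and 1190 counts, a log2 ratio of -0.08 (-0.20 to 0.04). Gclc and Gclm were named after their values were seen.

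Marker lists of other cell types gave these values. Fibroblast and preadipocyte markers had a median of 0.22 over 10 genes and summed levels of 19439 and 21279 CPM in control and knockdown cells, with Cd34 called higher at 2-fold on 19 and 69 counts, where 2.19% of all genes were. Macrophage markers summed to 9.43 and 11.2 CPM. Of the 7 written down, Ptprc, Adgre1 and Itgam were listed at 0 in both libraries. Cd14 had 362 and 536 counts, Cd68 had 172 and 119, Csf1r had 3 and 13, and Lyz2 had 7 and 25. Cd68 was called lower at 1.5-fold, where 7.26% of all genes were, and Lyz2 higher at 2-fold, where 2.19% were. Endothelial markers summed to 1.06 and 1.22 CPM, with Vwf called higher at 2-fold on 12 and 30 counts. Skeletal muscle markers summed to 7.82 and 5.12 CPM, with Myod1, Myog and Acta1 at 0, and osteoblast markers to 34.1 and 39.1. Nearly all of the muscle sum was Des, called lower at 1.5-fold with 448 and 314 counts. Nearly all of the osteoblast sum was Runx2, with 1909 and 2354.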
